A study of Mus musculus with 6 samples.

Results

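The genes described here are 10 regulators of alternative splicing in muscle, Rbpms, Rbpms2, Mbnl1, Mbnl2, Mbnl3, Celf1, Celf2, Rbm20, Rbm24 and Ptbp1, out of 19938 genes read on the arrays. They were measured in C2C12 cells, a mouse myoblast line, that carried a lentiviral small hairpin RNA. The hairpin was either directed against PARP-2 (shPARP2, 3 arrays) or scrambled (scPARP2, 3 arrays), and total RNA of each sample went to a single Affymetrix Mouse Gene 1.0 ST array. Both lines had received lentivirus, were kept under puromycin and grew in DMEM with fetal calf serum. With 1 line per hairpin, what PARP-2 silencing changed cannot be told apart from what else sets the lines apart. The labels do not state that samples of 1 line came from different cultures. The p-values therefore rest on the variation among these arrays alone, and that variation may be technical. All 10 genes had at least 1 probe set that names no other gene. Where a gene had several, the probe set was chosen by its mean signal over the 6 arrays, the brightest being used. These mean signals are given as a description. The 10 genes were listed with earlier results of these arrays known.

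Alternative splicing lets a muscle precursor and a muscle fibre make different proteins from the same gene. RBPMS proteins and PTBP1 act against each other on exons of smooth muscle, where PTBP1 represses exons of the differentiated form. MBNL proteins favour the adult splicing pattern of skeletal and cardiac muscle, and CELF proteins favour the embryonic pattern. RBM20 represses exons of titin in striated muscle, and RBM24 promotes the inclusion of muscle exons. The table gives 1 level per probe set and no level per exon, so these data show the amount of the regulators' mRNA and not the splicing of their targets.

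The arrays had medians between 7.04 and 7.18 on the log2 scale and were compared without further scaling. Centring them on their medians left the calls of the 10 regulators as they were. Over all probe sets it left 2512 lower calls of 3249. The median SD per probe set was 0.0753 over the scPARP2 arrays and 0.142 over the shPARP2 arrays. Parp2, the silenced gene, kept 47.6% of its signal in shPARP2 cells, with all 3 arrays (7.86 to 8.14) below those of scPARP2 cells (8.94 to 9.13). The myoblast markers Des, Chrna1, Ncam1, Cdh15, Myod1 and Myf5 all read above the median of all probe sets. The array reads a population of cells, so fewer cells of a type and less RNA per cell cannot be told apart.

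In shPARP2 cells 3 of the 10 regulators fell (Rbpms, Mbnl3 and Rbpms2), 2 rose (Rbm24 and Rbm20), and Mbnl1, Mbnl2, Celf1, Celf2 and Ptbp1 did not pass the test. The test was a linear model in limma with empirical Bayes moderation, and a gene was called at a Benjamini-Hochberg adjusted p under 0.05 over all 35556 probe sets. Over all 19938 genes, 24.0% were called, 12.4% as higher and 11.6% as lower, so calls were common on these arrays. The median log2 fold change was -0.01 over the 10 regulators and -0.02 over all genes. The arrays of the lines did not overlap for 7 of the 10 regulators, against 42.1% of all genes. These 7 were the called genes together with Mbnl1 and Ptbp1. The size of the change ranged from 1.04-fold for Celf1 to 13.7-fold for Rbpms.

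**Figure D1:**
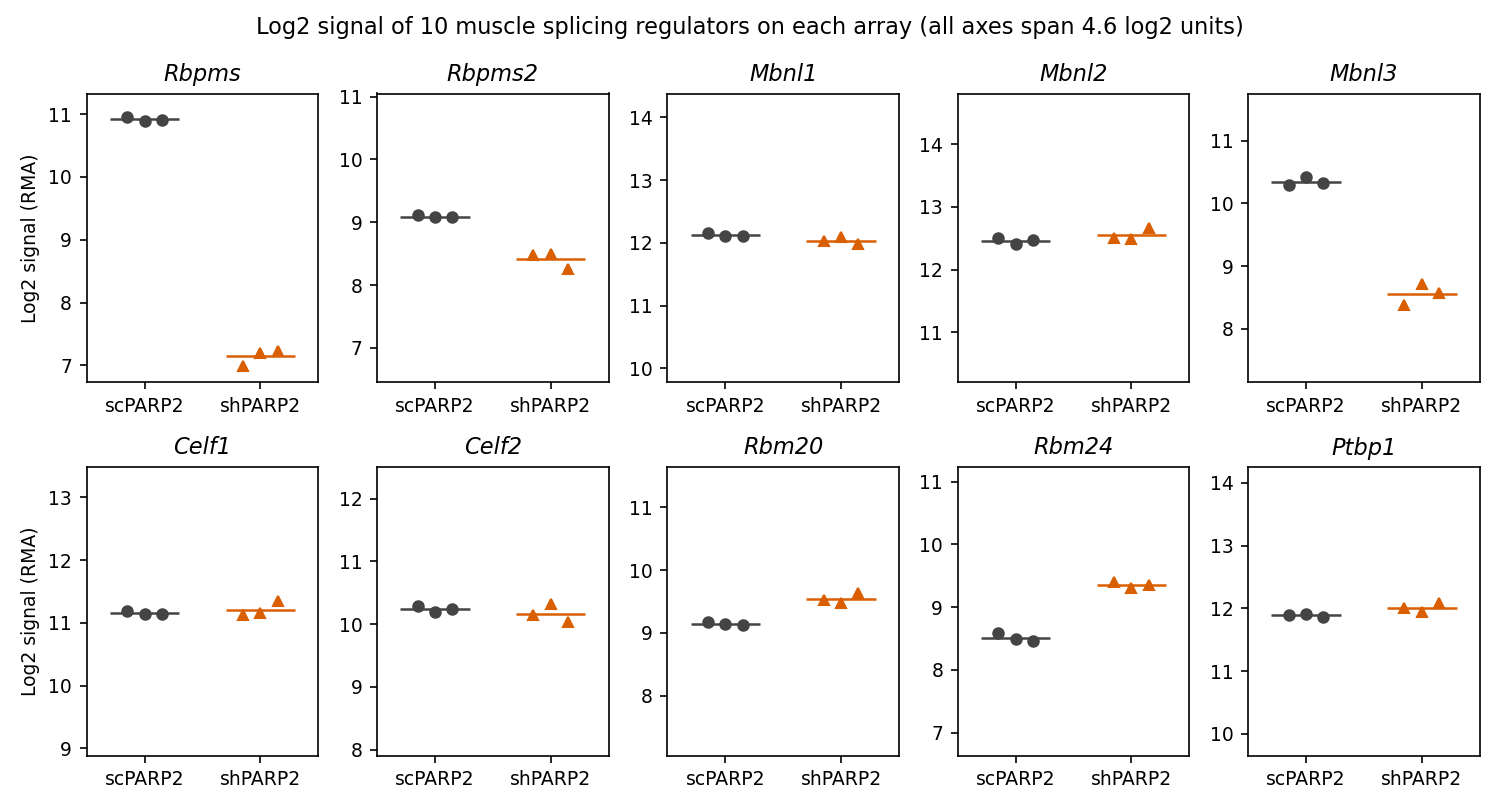
Log2 signal (vertical axes, each spanning the same range) of the 10 regulators on the 3 scPARP2 arrays (grey circles) and the 3 shPARP2 arrays (orange triangles), with horizontal bars at the means. Rbpms drops from about 10.9 to about 7.1 and Mbnl3 from about 10.3 to about 8.6, while the arrays of both lines lie close together for Mbnl1, Mbnl2, Celf1, Celf2 and Ptbp1.

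Rbpms encodes an RNA-binding protein that promotes the splicing pattern of differentiated smooth muscle, and it had the largest change of the 10. Its probe set (10578123) read 10.95, 10.89 and 10.91 on the scPARP2 arrays and 7.00, 7.20 and 7.23 on the shPARP2 arrays. All shPARP2 arrays lay far below all scPARP2 arrays, and the gap was many times the spread within either line. Rbpms had a log2 difference of -3.78 (SE 0.08, limma adjusted p = 1.90e-05), which is 13.7-fold lower (95% confidence interval 11.9 to 15.7), so 7.30% of the signal was left. Among all 19938 genes only 7 had a lower log2 fold change, which places Rbpms at rank 8. The gene lies at chr8:33782643-33929922 (GRCm38.p6). The table holds no detection call, so how far the shPARP2 signal lay above the background of the array was not tested.

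Rbpms2, the paralog of Rbpms, marks smooth muscle precursors of the gut and fell by far less. Its probe set (10586433) read 9.11, 9.08 and 9.08 on the scPARP2 arrays and 8.49, 8.49 and 8.26 on the shPARP2 arrays. The lines did not overlap, and shPARP2 replicate 3 was the lowest array. This was a log2 difference of -0.68 (SE 0.08, limma adjusted p = 0.00287), or 1.60-fold lower. The change of Rbpms exceeded that of Rbpms2 by -3.10 on the log2 scale (SE 0.13). In the exact two-sided permutation test over arrays this gave p = 0.1, the smallest p that 3 arrays against 3 allow. Both proteins share an RNA recognition motif, and the part of hybridization between the paralogs in these values was not tested.

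Mbnl3, the muscleblind protein of proliferating myoblasts that holds back their differentiation, was the only called gene of its family. Its probe set (10604528) read 10.29, 10.43 and 10.33 on the scPARP2 arrays and 8.39, 8.71 and 8.57 on the shPARP2 arrays. The lowest scPARP2 array was above the highest shPARP2 array by more than the range within either line. The fitted change was -1.79 on the log2 scale (SE 0.10, limma adjusted p = 0.000183), so 28.9% of the signal was left. Mbnl3 was at rank 104 from the lowest log2 fold change among all genes, and it lies at chrX:51113494-51205990 (GRCm38.p6).

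Mbnl1 and Mbnl2, the muscleblind proteins that drive adult splicing and are sequestered by expanded repeats in myotonic dystrophy, did not pass the test. Mbnl1 read 12.16, 12.12 and 12.11 on the scPARP2 arrays and 12.03, 12.09 and 11.98 on the shPARP2 arrays. Its groups did not overlap, but the log2 fold change of -0.10 (SE 0.06) did not pass limma's test (adjusted p = 0.404). Mbnl2 read 12.50, 12.42 and 12.47 on the scPARP2 arrays and 12.51, 12.48 and 12.66 on the shPARP2 arrays. Its groups overlapped, with a log2 fold change of 0.09 (SE 0.07, limma adjusted p = 0.502). The 95% confidence intervals of the log2 fold change ran from -0.25 to 0.06 for Mbnl1 and from -0.09 to 0.27 for Mbnl2. The change of Mbnl3 exceeded that of Mbnl1 by -1.70 (SE 0.10) and that of Mbnl2 by -1.88 (SE 0.13) on the log2 scale. Each of these differences reached p = 0.1 in the exact permutation test, the smallest it allows.

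Celf1 and Celf2 bind GU-rich RNA and work against MBNL proteins on many exons, and neither passed the test. Celf1 read 11.18, 11.15 and 11.14 on the scPARP2 arrays and 11.13, 11.15 and 11.34 on the shPARP2 arrays. The groups overlapped, and shPARP2 replicate 3 stood above the other 5 arrays. Over both groups Celf1 had a log2 fold change of 0.05 (SE 0.08, limma adjusted p = 0.756). The dimmer Celf1 probe set (10473779) was also highest on shPARP2 replicate 3, with 9.53 there and 8.89 to 9.04 on the other arrays. Celf2 read 10.29, 10.19 and 10.25 on the scPARP2 arrays and 10.14, 10.33 and 10.03 on the shPARP2 arrays. Its log2 fold change was -0.08 (SE 0.09, limma adjusted p = 0.667), and its dimmer probe set (10479948) had a change of -0.11 (limma adjusted p = 0.686). The 95% confidence interval of the log2 fold change ran from -0.14 to 0.24 for Celf1 and from -0.30 to 0.15 for Celf2. The changes of Celf1 and Celf2 differed by 0.13 (SE 0.15), with p = 0.6 in the exact permutation test.

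Rbm24, an RNA-binding protein that supports myogenic differentiation and the inclusion of muscle exons, rose most among the 10. Its probe set (10404904) read 8.59, 8.49 and 8.46 on the scPARP2 arrays and 9.39, 9.30 and 9.35 on the shPARP2 arrays. The groups were well apart and the spread within each was small. On the log2 scale Rbm24 was higher by 0.83 (SE 0.07, limma adjusted p = 0.000688, 95% confidence interval 0.67 to 1.00), or 1.78-fold higher. Rbm24 was at rank 556 from the highest log2 fold change among all genes.

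Rbm20, the repressor of titin exons that is mutated in a form of dilated cardiomyopathy, rose less. Its probe set (10463981) read 9.17, 9.14 and 9.12 on the scPARP2 arrays and 9.52, 9.47 and 9.64 on the shPARP2 arrays. The lines did not overlap. The log2 fold change was 0.40 (SE 0.07, limma adjusted p = 0.0106), or 1.32-fold higher. Its call ended without scPARP2 replicate 2 (limma adjusted p = 0.0527) and without scPARP2 replicate 3 (limma adjusted p = 0.0599), with log2 fold changes of 0.40 and 0.39. The change of Rbm24 exceeded that of Rbm20 by 0.44 (SE 0.06, p = 0.1 in the exact permutation test). Adjusted over the 5 pairs of regulators compared in this way, the p-values were 0.125 for the pairs of Rbpms, Mbnl3 and Rbm24 and 0.6 for the pair of Celf genes.

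Ptbp1, the polypyrimidine tract binding protein that represses muscle and neuronal exons in proliferating cells, did not pass the test. It read between 11.87 and 11.92 on the scPARP2 arrays and between 11.95 and 12.09 on the shPARP2 arrays. Every shPARP2 array was above every scPARP2 array by a small margin. The log2 fold change was 0.12 (SE 0.07, 95% confidence interval -0.04 to 0.28, limma adjusted p = 0.307). The dimmer probe set (10407390) had a log2 fold change of 0.06 (limma adjusted p = 0.615).

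**Figure D2:**
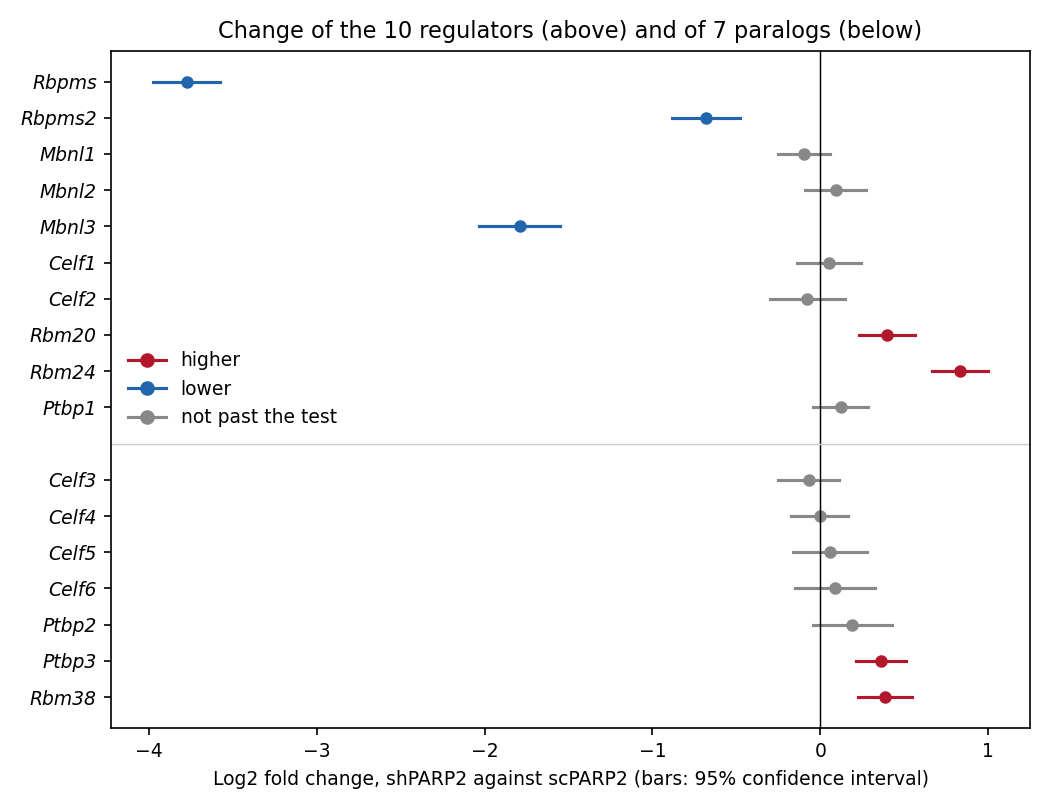
Log2 fold change of shPARP2 against scPARP2 cells (horizontal axis) for the 10 regulators above the grey line and 7 of their paralogs below it. Points are fitted differences of 3 arrays against 3 and bars are 95% confidence intervals. Rbpms at -3.78 and Mbnl3 at -1.79 lie apart from all others, and the grey genes have intervals that include 0.

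The sequence before the start of a gene is shown for the called regulators that have an entry in the RefSeq promoter table (GRCm38.p6), which holds 8 of the 10 genes and neither Rbpms nor Rbm20. The 250 bases before the start were searched on both strands for CANNTG (the E box bound by myogenic factors), TGACNNNGC (the antioxidant response element) and the CArG box of serum response factor. CANNTG was found in 66.2% of all 32851 promoter windows of that length, TGACNNNGC in 10.2% and the CArG box in 1.47%. The window of Mbnl3, at chrX:51205991-51206240 on the minus strand, has none of the 3 motifs and a GC content of 59.2%. For Rbpms2 and Rbm24 a stretch of 30 bases around the CANNTG match nearest the start is shown, with the match in capitals. The match of Rbpms2 begins 80 bases before the start, in the stretch chr9:65630490-65630519 (plus strand). The match of Rbm24 begins 183 bases before it, in the stretch chr13:46418105-46418134 (plus strand). Of the 13 windows of the 8 genes, 8 held CANNTG, which is near the share of all windows. Both stretches lie within the annotated span of their gene, downstream of its outermost start. A match is a description of the letters only.
Mbnl3: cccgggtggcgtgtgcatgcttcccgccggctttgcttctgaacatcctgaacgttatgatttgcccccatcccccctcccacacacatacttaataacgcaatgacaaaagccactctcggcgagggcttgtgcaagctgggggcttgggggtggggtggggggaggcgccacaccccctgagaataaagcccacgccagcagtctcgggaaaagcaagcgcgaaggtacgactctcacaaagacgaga
Rbpms2: cgggccgggcccCAGCTGaggccggttccg
Rbm24: ggactctcaagtCAACTGgtcgtgccagcg

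Of 7 paralogs outside the 10, Rbm38 and Ptbp3 rose and Celf3, Celf4, Celf5, Celf6 and Ptbp2 did not pass the test, with log2 fold changes between -0.07 and 0.19. The share called, 28.6%, was near the 24.0% of all genes. Rbm38, the paralog of Rbm24 that also supports myogenic differentiation, read 10.50, 10.37 and 10.38 on the scPARP2 arrays and 10.81, 10.77 and 10.83 on the shPARP2 arrays. Its log2 fold change was 0.39 (SE 0.07, limma adjusted p = 0.010). Ptbp3 had a log2 fold change of 0.36 (SE 0.06, limma adjusted p = 0.00921). Both calls ended without scPARP2 replicate 2 (adjusted p = 0.0559 and 0.0542 from limma) and without scPARP2 replicate 3 (adjusted p = 0.0599 and 0.0516 from limma).

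Among 98 other splicing factors, 19 rose and 11 fell, and 30.6% were called against 24.0% of all genes. Dim probe sets were called less often. With those under the 40th percentile left out, 35 of 89 of these factors were called, against 7582 of 21334 probe sets. The list joins the paralogs, 25 other cell-type regulators, 12 SR proteins, 20 hnRNP proteins and 34 core spliceosome proteins, and its median log2 fold change was 0.03. The changes were small beside those of Rbpms and Mbnl3, running from -1.07 to 0.54. The lowest was Khdrbs3, a STAR family regulator best known from brain and testis, at -1.07 (SE 0.08, limma adjusted p = 0.000471). Tia1, which helps U1 snRNP to weak splice sites, had a log2 fold change of -0.68 (limma adjusted p = 0.00599). Rbfox2, the RBFOX protein of most tissues, had one of 0.43 (adjusted p = 0.0126), and the neuronal Elavl2 one of -0.39 (adjusted p = 0.0397). Without scPARP2 replicate 1, 2 or 3 the called genes of this list numbered 7, 8 and 5, and without shPARP2 replicate 1 they numbered 18. The calls of Rbfox2 and Elavl2 ended without each of the scPARP2 replicates. That of Elavl2, whose probe set was dim (under the 40th percentile), also ended without shPARP2 replicate 2 or 3. Quantile normalization, median centring and the replicate block ended it as well (limma adjusted p = 0.0768, 0.0787 and 0.0970).

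SR and hnRNP proteins activate or repress exons in most cells. Of 12 SR proteins 4 rose and 8 did not pass the test, with a median log2 fold change of 0.09 over the list. They were Tra2b (0.36), Srsf2 (0.30), Srsf4 (0.30) and Srsf10 (0.30), and their adjusted p-values from limma lay between 0.00970 and 0.0386. Of 20 hnRNP proteins 4 rose, 2 fell and 14 did not pass the test, with a median of 0.11. The shares called, 33.3% of the SR and 30% of the hnRNP proteins, were near the 24.0% of all genes. Syncrip had the largest change at 0.54 (SE 0.08, limma adjusted p = 0.00539). Hnrnpd and Hnrnpul2 had log2 fold changes of 0.37 and 0.33, and Hnrnpul1 one of -0.30. Without scPARP2 replicate 1 or 3 Tra2b missed the threshold (limma adjusted p = 0.0531 and 0.0622), and without scPARP2 replicate 2 or shPARP2 replicate 1 only Tra2b was called, while 1 hnRNP protein was called without any single scPARP2 replicate.

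Of 34 core spliceosome proteins 5 rose and 6 fell, with a median of -0.05, and the 32.4% called were not far from the 24.0% of all genes. Snrpa1, a protein of U2 snRNP, had a log2 fold change of 0.53 (limma adjusted p = 0.0171) and Sf3b6, a subunit of SF3B, one of 0.46 (adjusted p = 0.0124). Sf3b3, another SF3B subunit, had one of -0.47 (adjusted p = 0.00393) and the Sm protein Snrpd2 one of -0.44 (adjusted p = 0.00686). The core proteins called numbered 2, 4 and 2 without scPARP2 replicate 1, 2 or 3 and 6 without shPARP2 replicate 1. The call of Sf3b6 ended without each of the scPARP2 replicates (limma adjusted p = 0.0585, 0.0530 and 0.0549). That of Snrpa1 ended without scPARP2 replicate 1 or 3 (limma adjusted p = 0.0712 and 0.0696). Sf3b3 and Snrpd2 stayed called without any single array.

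**Figure D3:**
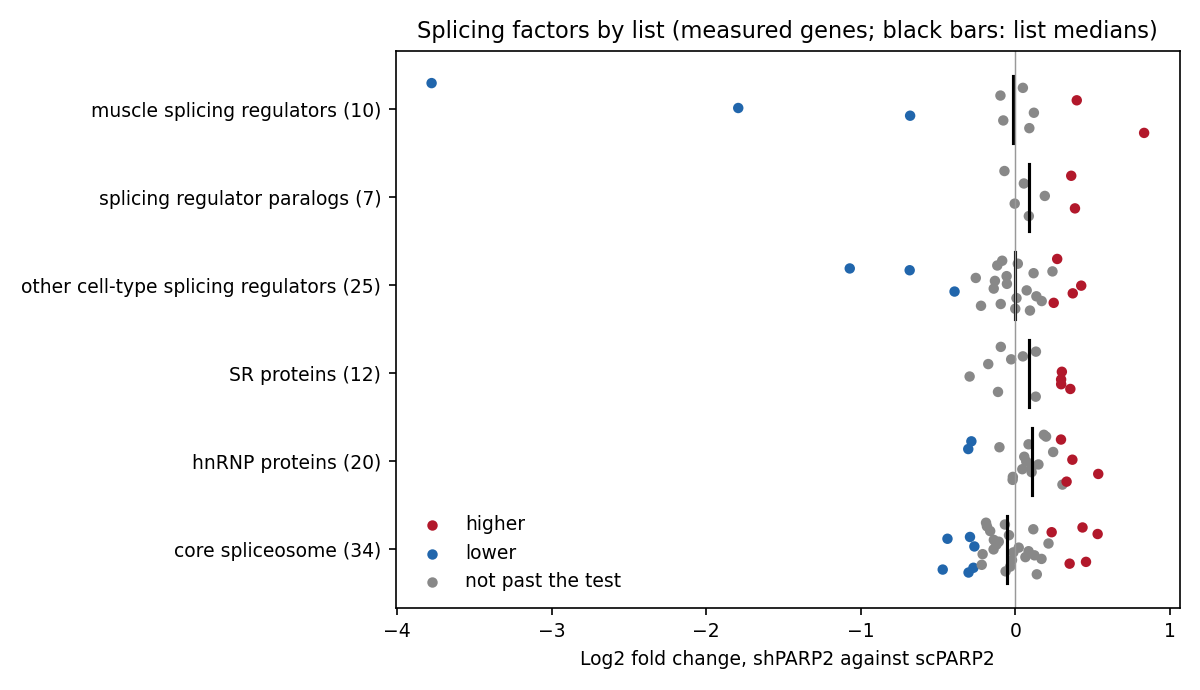
Log2 fold change of shPARP2 against scPARP2 cells (horizontal axis) of the measured genes of 6 lists of splicing factors, with the number of genes in brackets. Each point is a gene, red and blue points passed the test at an adjusted p of 0.05 and black bars are list medians, which lie between -0.05 and 0.11. The vertical offset of points has no meaning. Rbpms and Mbnl3 in the top row lie below all genes of the other rows.

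Transcripts whose exons MBNL and CELF proteins are known to regulate were higher more often than lower at the level of the whole gene. Of 14 genes 7 rose and 2 fell, and the median log2 fold change was 0.34, against -0.02 over all genes. Without scPARP2 replicate 1, 2 or 3, or at an adjusted p under 0.01, 7 rose and 0 fell. Under median centring or the replicate block 7 rose and 1 fell. The share called was 64.3%, against 24.0% of all genes. Tnnt2, the cardiac troponin T of early muscle, read 10.51, 10.78 and 10.56 on the scPARP2 arrays and 12.31, 12.35 and 12.26 on the shPARP2 arrays. Its log2 fold change was 1.69 (SE 0.09, limma adjusted p = 0.000147). Tnnt3, the fast skeletal troponin T, had a log2 fold change of 1.13, the calcium pump gene Atp2a1 one of 0.87 and the calcium release channel gene Ryr1 one of 0.85. Their adjusted p-values from limma lay between 0.000580 and 0.00519. All 4 of these genes are also genes of muscle differentiation, and the exons in their transcripts were not measured.

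Of 11 transcripts spliced by RBM20 and RBM24, 2 rose and 2 fell, with a median log2 fold change of -0.04. The share called was 36.4%, against 24.0% of all genes. Trdn, the triadin of the calcium release complex, read 10.54, 10.54 and 10.46 on the scPARP2 arrays and 8.48, 8.70 and 8.01 on the shPARP2 arrays. Trdn was lower in every shPARP2 array, with a log2 difference of -2.12 (SE 0.17, limma adjusted p = 0.000663). Ttn, the giant sarcomere protein titin, had a log2 fold change of 1.01 (limma adjusted p = 0.00133). Enah, an actin regulator, had one of 0.86 (adjusted p = 0.000623), and the kinase gene Camk2d one of -0.51 (adjusted p = 0.00699).

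Of 15 transcripts spliced by RBPMS and PTBP1, 4 rose and 3 fell, with a median of 0.07. The share called was 46.7%, against 24.0% of all genes. The receptor phosphatase gene Ptprf had a log2 fold change of 0.91 (limma adjusted p = 0.00182) and the tropomyosin gene Tpm2 one of 0.78 (adjusted p = 0.00346). Smtn, a smooth muscle actin-binding protein, had one of 0.48 (adjusted p = 0.00443), and the actinin gene Actn1 one of -0.48 (adjusted p = 0.00765). The called genes of this list numbered 4 without scPARP2 replicate 1 and 4 without scPARP2 replicate 3.

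Smooth muscle contractile genes, among which Rbpms is known as a marker, did not move in a single direction. Of 12 genes 2 rose and 2 fell, and the median log2 fold change was -0.10. The share called, 33.3%, was near the 24.0% of all genes. Mylk, the myosin light chain kinase, had a log2 fold change of -1.11 (limma adjusted p = 0.00127) and Tagln, which encodes SM22, one of -0.61 (adjusted p = 0.0123). Besides Smtn, Des had a log2 fold change of 0.39 (adjusted p = 0.0449). Without scPARP2 replicate 2 only 2 genes of the list were called, and the call of Tagln ended (limma adjusted p = 0.0553). The call of Des ended without any single array but shPARP2 replicate 3 (limma adjusted p = 0.0743 to 0.148), and also under quantile normalization (0.0534) and median centring (0.0850).

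Genes of skeletal muscle differentiation were mostly higher in the shPARP2 line. Of 15 genes 10 rose, 1 fell and 4 did not pass the test, with a median log2 fold change of 0.83. The share called was 73.3%, against 24.0% of all genes. Mymk, the fusion protein myomaker, read 10.27, 10.47 and 10.36 on the scPARP2 arrays and 12.28, 12.44 and 12.05 on the shPARP2 arrays, a log2 fold change of 1.89 (SE 0.12, limma adjusted p = 0.000261). Tnnc1 and Acta1, of the thin filament, had log2 fold changes of 1.32 and 1.2. Mef2c, a transcription factor of late differentiation, had a log2 fold change of -1.45 (SE 0.09, limma adjusted p = 0.000304). Its groups did not overlap either. The summed signal of the 6 myoblast markers lay between 11904 and 12189 on the scPARP2 arrays and between 19074 and 22739 on the shPARP2 arrays. Of these markers 5 rose, which is 83.3% called against 24.0% of all genes. Myod1 did not pass the test and had the lowest log2 fold change of the list, -0.20. Under quantile normalization, median centring or the replicate block 4 rose. Myod1, Myf5 and Cdh15 are in both this list and that of muscle differentiation. The summed signal of the 6 fibroblast markers lay between 7534 and 7626 on the scPARP2 arrays and between 6097 and 7465 on the shPARP2 arrays, where Col1a1 rose and Dcn and Pdgfra fell. Lum and Thy1, also in that list, read below the median of all probe sets. The part of these differences in the change of the regulators was not tested. Over the 62 transcripts and muscle genes of all these lists, 24 rose and 10 fell, which is 54.8% called against 24.0% of all genes.

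**Figure D4:**
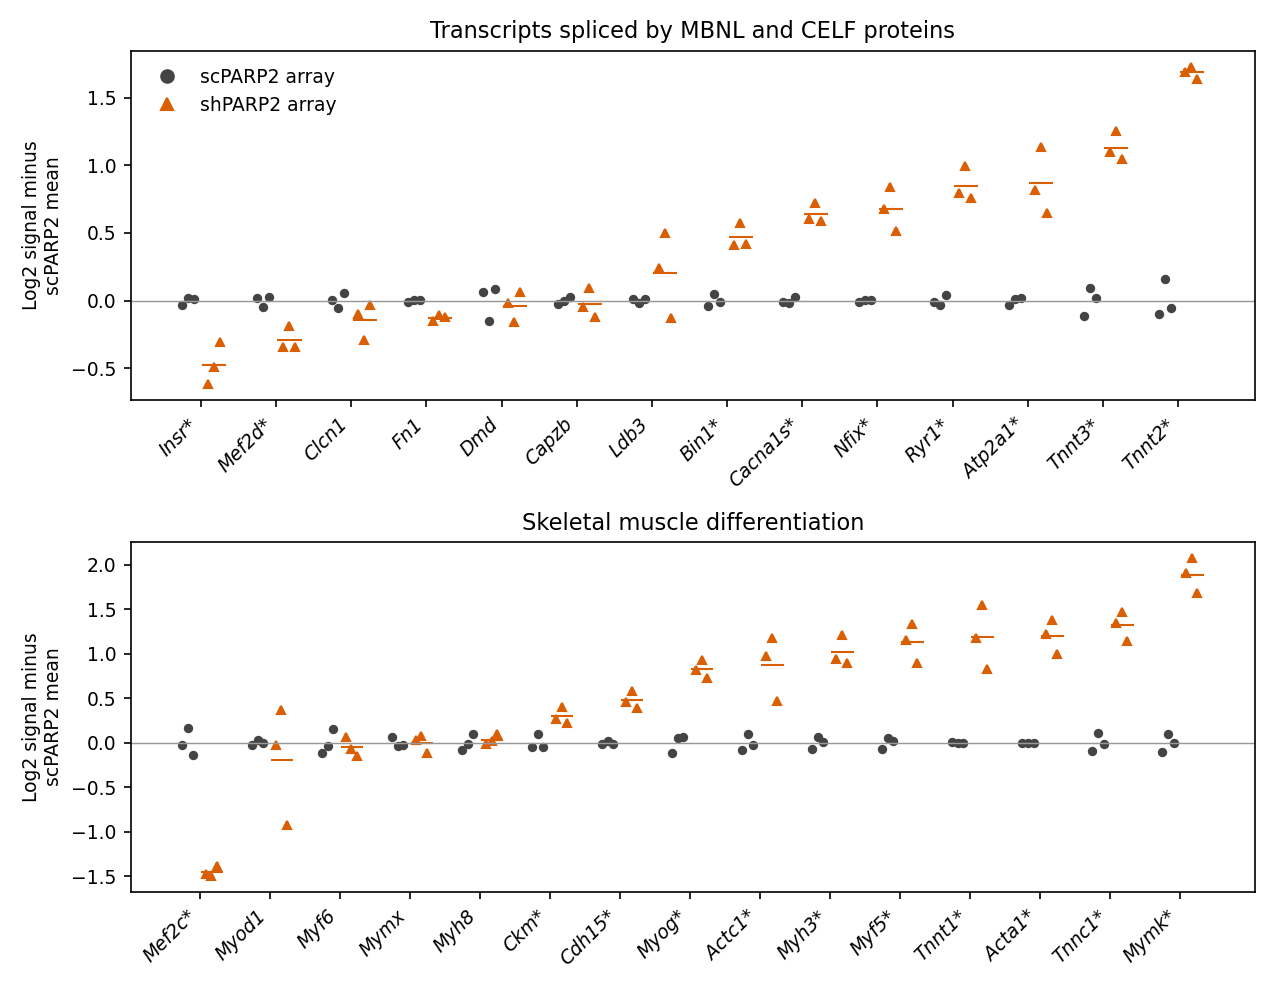
Log2 signal minus the mean of the scPARP2 arrays (vertical axes) for the 14 transcripts spliced by MBNL and CELF proteins (upper panel) and the 15 genes of skeletal muscle differentiation (lower panel), in order of their change. Grey circles are scPARP2 arrays, orange triangles are shPARP2 arrays, short bars are shPARP2 means and asterisks mark genes past the test. Tnnt2 at 1.69 and Mymk at 1.89 are the highest and Mef2c at -1.45 is the lowest.

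The genes whose pattern over the 6 arrays was closest to that of Rbpms were Lbp, Nqo1 and Rorb. Likeness was the root mean square difference between the log2 signals of 2 genes, each set to 0 at its scPARP2 mean. It was 0.106 for Lbp, which encodes the lipopolysaccharide binding protein, 0.144 for the quinone reductase gene Nqo1 and 0.145 for the nuclear receptor gene Rorb. Lbp read 11.24, 11.34 and 11.29 on the scPARP2 arrays and 7.41, 7.78 and 7.51 on the shPARP2 arrays. The measure follows the size of the difference between the lines, since the arrays within a line differ little.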

How the data were processed

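Expression was measured on 6 Affymetrix Mouse Gene 1.0 ST arrays, 3 of scPARP2 and 3 of shPARP2 C2C12 cells, grouped by their titles. The deposited values are log2 signals, summarised with RMA by the authors according to the submitters' processing notes. No source used here gives the software version or the array library. RMA adjusts the background and shrinks changes of dim probe sets, and no read depth exists, so precision rests on 3 arrays a line. Of 35556 probe sets, 21789 name 1 gene in the platform annotation, whose symbols can be old.

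Here the log2 values were fitted in limma 3.58.1 (R 4.3.3, lmFit and eBayes, no covariate), following the methods of the study, and p-values were adjusted by Benjamini-Hochberg over all probe sets. Pairs of regulators were compared by exact permutation in scipy 1.17.1. The fit was first tested on simulated data in which 200 of 35556 probe sets changed, far fewer than the 6594 called on these arrays. It called 0 of 50 probe sets at a log2 change of 0.3, 13 of 50 at 0.6, 33 of 50 at 1.0 and 47 of 50 at 2.0.

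The members and gene lists were chosen with earlier results of these data known. Named genes were the 10 members, Parp2, up to 4 called genes of each list with the largest change, and the 3 genes closest to the member with the largest change. Lists were described by counts and medians. Marker lists covered myoblasts, cardiomyocytes, neurons, macrophages and leukocytes, endothelium, epithelium, adipocytes and fibroblasts. Listed genes without a probe set of their own were not analysed here. Alternatives were quantile normalization or median centring of the arrays, filters on dim (under the 40th percentile) or multi-gene probe sets, array weights, a robust variance with a trend, a block for the replicate number, the mean over a gene's probe sets, stricter calls (adjusted p under 0.01, or at least 1.5-fold) and leaving out each array.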

Additional observations from a re-analysis of the deposited data

How the results depend on the processing

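Rbpms, Rbpms2, Mbnl3 and Rbm24 stayed called with the same direction under all 16 alternatives, with log2 fold changes from -3.86 to -3.70, -0.72 to -0.60, -1.89 to -1.71 and 0.81 to 0.87. Rbm20 was called under 12 of 16, with a log2 fold change from 0.35 to 0.43. It did not pass at an adjusted p under 0.01, at a change of at least 1.5-fold, or without scPARP2 replicate 2 or 3. Mbnl1, Mbnl2, Celf1, Celf2 and Ptbp1 were called under none of the 16, with adjusted p-values from limma of 0.137 or more, and without shPARP2 replicate 3 the log2 fold change of Celf1 turned to -0.018 (-0.018 to 0.090 without any single array). Called regulators numbered 4 or 5 without any single array. Over all probe sets 6594 were called, 3325 at an adjusted p under 0.01, 2785 at a change of at least 1.5-fold and 3621 to 7231 without 1 array. Of the other splicing factors 30 were called, 7 at an adjusted p under 0.01, 2 at a change of at least 1.5-fold and 5 to 31 without 1 array. Of the transcripts and muscle genes 34 were called, 22 at a change of at least 1.5-fold. With dim probe sets left out 35 of 55 of them were called, against 7582 of 21334 probe sets. With the replicate number as a block 13 of the other splicing factors were called, and the calls of the 10 regulators stayed as they were. Deviations of same-numbered arrays correlated at -0.05, 0.09 and 0.01, so the numbers gave no sign of pairing. The cause of the differences between settings was not tested beyond their construction. No scaling moved the median log2 fold change of all genes by over 0.1. Median centring did move calls, with 2512 probe sets lower against 3249 before, and 3320 higher against 3345. The calls of Srsf2, Srsf10 and Hnrnpul1 ended under median centring (limma adjusted p = 0.0793, 0.0677 and 0.0761). A microarray without detection calls limits how small the shPARP2 level of Rbpms can be said to be.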

Other observations

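Markers of cell types other than myoblasts and fibroblasts were mostly not called, with shares called from 0% to 20% per list. Of all genes 24.0% were called, and of the 6 fibroblast markers 50%. The summed signal of 7 cardiomyocyte markers lay between 1709 and 1772 on the scPARP2 arrays and between 1540 and 1692 on the shPARP2 arrays, that of 6 neuron markers between 599.6 and 609 and between 524 and 561, and that of 6 macrophage and leukocyte markers between 571 and 602 and between 433 and 499. In these lists Map2 (-0.80) and Cd68 (-0.72) passed limma's test, and of the cardiomyocyte markers 0 did, with 1 at an unadjusted p under 0.05. The 5 endothelial markers summed to between 485 and 513 and between 432 and 544, the 5 epithelial markers to between 649 and 747 and between 643 and 739, and the 5 adipocyte markers, of which Cebpa fell by 1.16 on the log2 scale, to between 2191 and 2285 and between 1823 and 1912. In limma 0 endothelial and 0 epithelial markers were called, and 1 and 0 had an unadjusted p under 0.05.

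Myod1, the master regulator of myogenesis, had the widest spread among the genes of muscle differentiation in shPARP2 cells. It read 9.79, 9.85 and 9.82 on the scPARP2 arrays and 9.79, 10.19 and 8.89 on the shPARP2 arrays, where replicate 3 was the lowest. On the same array, which had the highest median, both Celf1 probe sets, Mbnl2, Rbm20 and the brighter Ptbp1 probe set read highest. Rbpms2, Mbnl1 and the brighter Celf2 probe set read lowest there. These values were chosen after they were seen.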
